A study of Mus musculus with 8 samples.

Results

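Of 73709 chromatin regions that were open in mouse hepatocytes before or after partial hepatectomy (PHx), 366 (0.497%) came within a fixed rank limit in both libraries taken at 48 h and in no library of another time. Each library's peak list was reduced to its 50000 intervals with the highest −log10 p, the intervals of all 8 libraries were merged wherever they shared at least 1 bp, and a region was selected if kept intervals of both 48 h libraries and of none of the other 6 covered it. The regions were thus selected on the ranks of the 48 h libraries against the others, and their ranks, p-values and fold enrichments are given as a description, without a test. Applied to the other times, the rule gave 403 regions (0.547%) for 0 h, 273 (0.37%) for 72 h and 226 (0.307%) for 96 h.

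The study profiled hepatocytes of C57BL/6 mice (C57BL/6J, adult males, in its methods) labelled as 10 to 12 weeks old and kept on a normal diet, with 2 libraries from undamaged liver (0 h) and 2 from each of the times 48, 72 and 96 h after PHx. The cells were isolated by 2-step collagenase perfusion and accessible DNA in their nuclei was cut and tagged with Tn5 transposase (bulk ATAC-Seq). The study's methods describe hepatocytes from several mice at each of the 4 times, and its text separate preparations as biological replicates of this assay at 0 and 48 h, more of them than the 2 libraries used here. Any further ones were not analysed here, and the labels do not say which mouse gave which library. Fewer cells of a kind and less accessibility per cell cannot be told apart in such bulk libraries.

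PHx removes part of the liver, and the remaining hepatocytes leave quiescence, divide and restore the organ's mass while they keep up its metabolism. Activator protein 1 (AP-1), a dimer of Jun and Fos family proteins, is an early effector of this response and binds accessible enhancers. CTCF is an architectural protein that marks chromatin loop anchors in every cell type, whereas HNF4, FOXA and C/EBP factors define the enhancers of mature hepatocytes.

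AP-1 matches are shown first, because AP-1 was the motif by which the 48 h regions stood farthest above all consensus regions. The 8 regions of highest rank with a match are printed, a choice made after the values were seen, and each is named for the protein-coding gene with the nearest start site. Capitals mark TGACTCA or its reverse complement, the lines run 5′ to 3′, and coordinates are mm10 (GRCm38). The Rbm47 line is chr5:66171738-66171798 on the minus strand, at the outer edge of an Rbm47 promoter. The Trim7 line is chr11:48844407-48844467 on the plus strand, in a region that overlaps a noncoding exon. Rhou stands for chr8:123692378-123692438, plus strand, in an intron of the gene model Gm20388. Vwa5b1 stands for chr4:138546397-138546457, plus strand, which is intergenic. The promoter line of Gtf2a1 is chr12:91590946-91591006, plus strand. Slc25a15 is the intergenic stretch chr8:22404706-22404766, minus strand, and Spred1 the intergenic stretch chr2:117095641-117095701, minus strand. Gigyf1 is the promoter stretch chr5:137518676-137518736, plus strand.
Rbm47: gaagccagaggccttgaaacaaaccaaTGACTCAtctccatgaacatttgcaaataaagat
Trim7: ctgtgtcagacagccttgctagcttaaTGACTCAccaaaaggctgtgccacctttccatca
Rhou: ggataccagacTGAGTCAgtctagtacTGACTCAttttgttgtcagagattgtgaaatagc
Vwa5b1: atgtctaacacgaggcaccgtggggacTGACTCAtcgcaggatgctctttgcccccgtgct
Gtf2a1: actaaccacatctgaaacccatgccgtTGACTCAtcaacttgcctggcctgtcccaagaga
Slc25a15: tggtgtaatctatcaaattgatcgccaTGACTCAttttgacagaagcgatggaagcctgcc
Spred1: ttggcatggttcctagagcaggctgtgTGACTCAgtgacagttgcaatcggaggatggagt
Gigyf1: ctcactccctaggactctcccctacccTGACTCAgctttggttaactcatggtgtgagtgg
The match lay between 3 and 77 bp from the summit in these 8 regions, and the Rhou region held 2 matches within 1 line.

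CTCF matches are shown as well, because CTCF came next in percentage points among motifs of a single factor. The lines that follow come from the 6 regions of highest rank with a match, of which the 2 near Gm12216 and Mars2 are not printed. Capitals mark the bases that matched the CTCF consensus. The Mpnd line is chr17:56010857-56010911 on the minus strand, in a region that overlaps a coding exon. The Gigyf1 line, chr5:137518604-137518658, plus strand, lies in the same promoter region as the AP-1 match printed for that gene. Ggcx is chr6:72409749-72409803, minus strand, and Csf3 is chr11:98700045-98700099, plus strand, both intergenic.
Mpnd: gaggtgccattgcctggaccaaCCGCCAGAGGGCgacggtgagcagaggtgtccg
Gigyf1: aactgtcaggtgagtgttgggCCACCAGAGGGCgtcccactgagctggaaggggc
Ggcx: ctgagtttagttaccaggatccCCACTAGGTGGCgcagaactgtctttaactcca
Csf3: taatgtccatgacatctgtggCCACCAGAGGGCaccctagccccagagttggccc
These CTCF matches sat 0 to 23 bp from the summit.

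The region of highest rank of all held neither motif but a transfer RNA gene. It is printed with its flanks, chr13:23425586-23425774 on the minus strand in mm10, and capitals mark the tRNA-Tyr gene as RefSeq annotates it in GRCm38.p6.
Tyrosine tRNA gene: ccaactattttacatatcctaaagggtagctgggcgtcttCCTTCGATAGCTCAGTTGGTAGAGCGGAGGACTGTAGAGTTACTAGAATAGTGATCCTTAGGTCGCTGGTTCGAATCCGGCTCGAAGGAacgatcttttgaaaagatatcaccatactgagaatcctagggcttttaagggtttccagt
The region itself spans chr13:23425450-23425786, is intergenic, and lies 1584 bp from the start site of Abt1, which encodes an activator of basal transcription.

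The name "open only at 48 h" went against the full lists. Of the 366 regions, 2 (0.546%) had no interval at any rank in the other 6 libraries, 111 (30.3%) were listed in 5 of them and 153 (41.8%) in all 6. The 0 h libraries listed 89.1% and 67.8% of the regions at any rank, the 72 h libraries 89.6% and 92.3%, and the 96 h libraries 89.9% and 66.4%. The share of all consensus regions listed was not computed. The full lists of these 6 libraries held from 105185 distinct intervals (0 h replicate 2) to 154545 (72 h replicate 2), which limits the highest rank. In each of these libraries the listed regions had median ranks between 65743 and 68962 and reached from just past rank 50000 to between 104815 and 143989. Their median ranks at 48 h were 41444 and 42610, and for 296 regions (80.9%) the weaker 48 h rank was over 40000. They are therefore called regions kept only at 48 h.

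**Figure D1:**
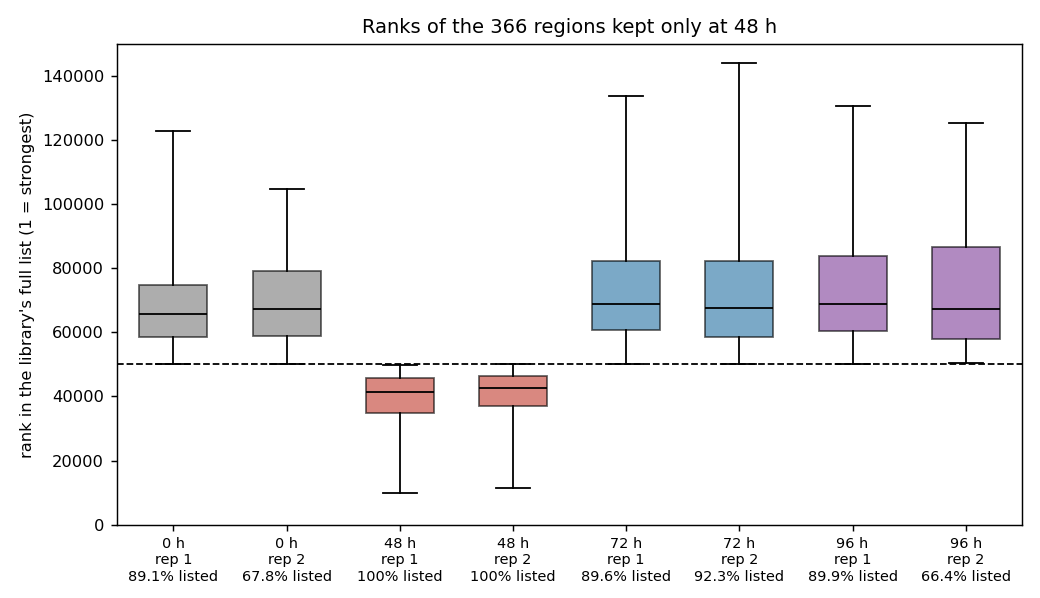
Rank of the 366 regions kept only at 48 h in each library's full peak list (1 is the strongest), with boxes for the quartiles, whiskers for the lowest and highest rank and a dashed line at rank 50000. The 48 h boxes lie under the line by construction, and the listed regions of the other libraries lie above it, with medians between 65743 and 68962.

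Fold enrichment over local background gave a similar picture. The median fold of the regions was 5.15 and 5.54 in the 48 h libraries, against 4.37 and 3.82 before PHx, 4.29 and 4.22 after 72 h, and 4.17 and 3.77 after 96 h. These were weak peaks at every time, since the median fold of all kept intervals lay between 6.7 and 9.35 in the 8 libraries. At 48 h itself it was 6.7 and 7.21, lower than in the other 6 libraries (7.97 to 9.35). The −log10 p of the interval at rank 50000 was also low at 48 h (8.05 and 8.62), as in 96 h replicate 2 (8.29) and 0 h replicate 2 (9.95), while it reached 14 to 15.2 in the other 4 libraries. A fixed rank therefore stood for unequal significance, and 287 of the regions had a −log10 p in some other library at or above that of their weaker 48 h library. The remaining 79 (21.6%) had a higher −log10 p in both 48 h libraries than in any other, and 157 (42.9%) had a higher fold. Both shares were the lowest of the 4 sets, since by the same measures in their own libraries 76.9% and 89.8% of the regions kept only at 0 h stood above the rest, 97.8% and 95.6% for 72 h, and 46% and 77.9% for 96 h. Over all 73709 consensus regions, 0.327% met the first criterion and 0.787% the second, which use the same contrast as the rule.

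At the limits of the rule the values were almost continuous. The 2 regions just inside the 48 h limit, near Brwd3 and Atoh8, had weaker 48 h ranks of 49999 and 49981, and the 2 just outside, near Plcb1 and Flrt3, had 50009 and 50016. Regions near Cdh12 and Ly6c2 stayed inside with a strongest rank elsewhere of 50037 and 50050, while regions near Zic1 and Adgra2 fell outside at 49991 and 49963. A further 688 regions were kept in both 48 h libraries and in 1 of the other 6. Summits of the 2 replicates at 48 h were a median of 18 bp apart, with 305 of the 366 pairs (83.3%) within 50 bp. The rule required intervals of both in 1 merged region, which favours close summits. The same distance over all consensus regions was not computed.

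The regions of highest rank at 48 h were separated from the other time points by fold. In the region with the tRNA-Tyr gene near Abt1 both 48 h folds, 8 and 7, were high, followed by 4.65 and 3.73 for 72 h, 4.31 and 2.69 for 0 h and 2.46 in 96 h replicate 1, with no interval in 96 h replicate 2. Both 48 h values lay above all the others. An intronic region of Cstf3 (chr2:104603124-104603801), which encodes a subunit of the complex that cleaves messenger RNA for polyadenylation, had 9.65 and 6.65 at 48 h and 2.98 to 4.72 in the other 6 libraries. An intronic region of Mb21d2 (chr16:28884701-28884953) had 7.05 and 6.48 at 48 h and 3.1 to 4.41 elsewhere. None of these 3 groups of values overlapped.

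A region over the coding exon of Depp1 (chr6:116651843-116652115) had folds of 4.94 and 4.82 at 48 h and was listed in only 2 of the other 6 libraries, at 2.5 (0 h replicate 1) and 2.66 (72 h replicate 2). The Rbm47 region (chr5:66171618-66172119) overlapped the promoter of a gene for an RNA-binding protein that takes part in RNA editing. Its fold reached 7.29 and 6.55 in the 48 h libraries, compared with 4.24 in 0 h replicate 1, 3.92 and 5.13 for 72 h and 4.03 in 96 h replicate 1, with no interval in 0 h replicate 2 and 96 h replicate 2. A region 9205 bp from the nearest start site of Slc29a1, a nucleoside transporter, had 4.93 and 5.77 at 48 h and 3.27 to 4.01 in the 5 other libraries that listed it. All 3 regions were higher in both 48 h libraries than in any other.

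The widest gap between the 48 h replicates among the 10 regions of highest rank was at chr8:123692256-123692544. This region, 38327 bp from the start site of Rhou, had folds of 7.11 and 12.2. In the other libraries it had 5.12 in 0 h replicate 1, 5.52 and 5.72 for 72 h and 4.08 in 96 h replicate 1, and it was not listed in 0 h replicate 2 and 96 h replicate 2. The Trim7 region had 7.53 and 7.08 at 48 h and 4.22 to 6.02 in 5 others. An intronic region of Tm6sf1 (chr7:81872485-81873013) had 6.16 and 6.42 against 3.94 to 4.59 in 4 others. In the tenth region, chr9:105389399-105389637 in an intron of Nek11 and near Aste1, the 48 h folds of 7.11 and 7.08 were close to the 6.83 of 0 h replicate 1, and that library's −log10 p of 15.2 was above both 48 h values (14 and 13.5).

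**Figure D2:**
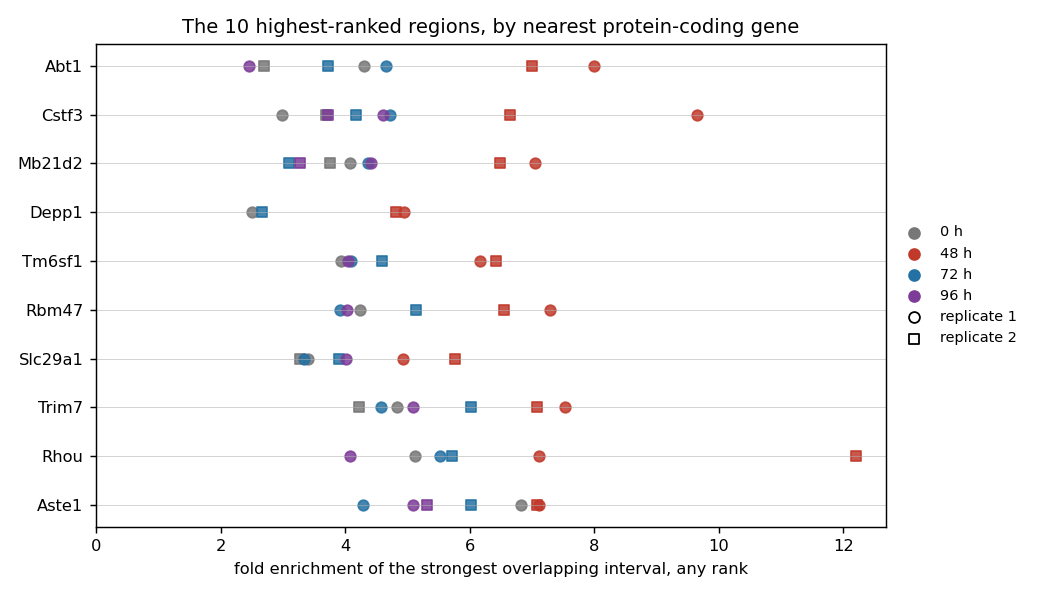
Fold enrichment over local background (x axis) of the 10 regions of highest rank, named by the nearest protein-coding gene, with 1 point per library that lists the region (colours for time, circles and squares for replicates 1 and 2). Both 48 h points lie to the right of all others in each row, by the least for Aste1 (7.08 against 6.83).

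The 2 regions without an interval elsewhere were modest. An intergenic region on chromosome 13 (chr13:23400694-23400909) over a tRNA-Ala gene had folds of 5.03 and 4.75 at 48 h. A region in the promoter of D3Ertd751e (chr3:41743561-41743785) had 4.91 and 4.19. A region in an intron of Bcas3, 55353 bp from the start site of Tbx2 and with an AP-1 match, was listed in 1 other library. Its folds were 5.12 and 5.1 at 48 h and 3.59 in 72 h replicate 1.

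Among 22 motifs sought within 100 bp of the summit on both strands, AP-1 showed the widest excess. AP-1 matches stood in 49 of the 366 regions (13.4%, 95% exact binomial interval 10.1% to 17.3%, which covers counting error only), compared with 5.52% of all consensus regions. The share was 3.47% in the regions kept only at 0 h, 5.49% for 72 h and 7.08% for 96 h. Of the 79 regions that were higher at 48 h by −log10 p, 19 (24.1%) held a match, of the 157 that were higher by fold, 26 (16.6%), and of the 208 that were higher by neither, 23 (11.1%). These subsets use the values that selected the regions. Among all consensus regions the share was 18.3% of the 241 that met the −log10 p criterion and 12.8% of the 580 that met the fold criterion. The 79 and 157 regions just given are part of these. The AP-1 share depended on how many intervals were kept. It fell to 6.23% when 25000 were kept per library (5.25% of all regions) and to 6.43% when all were kept (5.16%). With the whole region searched it was 15.6% (13.5% of all regions, which are wider). It was 8.69% when 48 h replicate 1 was left out and 10.8% when 48 h replicate 2 was left out.

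CTCF matches occurred in 43 regions (11.7%, interval 8.63% to 15.5%), against 9.08% of all regions, 0.993% of the regions kept only at 0 h, 6.59% for 72 h and 6.64% for 96 h. The CTCF share also moved with the number kept, to 17.6% at 25000 intervals (10.3% of all regions) and 1.05% with all intervals (2.97%), and to 5.25% without 48 h replicate 2. It was below the share of all regions with q under 0.05 (1.46% against 3.84%) and with 200 bp around each summit merged (7.85% against 8.21%). AP-1 and CTCF matches met in 3 regions, among them the Gigyf1 promoter printed above, which overlaps the annotated bodies of Gigyf1 and of Epo, the gene of the hormone that drives red cell production.

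Motifs of hepatocyte factors follow. HNF4, spelled CAAAGNNCA, matched 33 regions (9.02%, against 10% of all regions, and 12.9%, 8.42% and 8.41% of those kept only at 0, 72 and 96 h). FOXA, spelled TGTTTAC, matched 15 (4.1%, against 4.86% of all, and 7.69%, 5.86% and 3.1% in the same order). C/EBP, spelled TTGCNCAA, matched 9 (2.46%, against 4.78% of all, and 5.21%, 6.96% and 3.54%). The HNF4 share was 4.84% against 9.14% of all regions with 25000 intervals, 6.08% against 7.54% with all intervals and 8.32% against 8.14% with q under 0.05. The FOXA share was 4.15% against 4.61%, 4.09% against 3.63% and 3.12% against 3.96% in the same order. E-box matches (CACCTG) were found in 70 regions (19.1%, against 16.4% of all). The promoter motif SP/KLF (GGGCGG) was in 32 (8.74%, against 16.6% of all), a share close to the 7.94% to 8.79% of the regions kept only at another time.

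The remaining motifs are given with their share of the 366 regions first and of all regions second. GR (ACANNNTGT) matched 6.83% of the regions and 6.17% of all, NEUROD/ATOH1 (CAGATGG) 6.83% and 4.85%, and NRF2 (TGACNNNGC), whose letters can overlap an AP-1 match, 9.29% and 10.7%. ONECUT (ATTGATT) matched 5.46% and 4.76%, TEAD (CATTCCA) 3.55% and 3.32%, STAT (TTCNNNGAA) 3.55% and 5.5%, and SOX (ACAATGG) 2.73% and 2.09%. The letters AGATAAG of the zinc finger GATA family matched 2.19% and 2.52%, ETS (CCGGAAG) 1.09% and 3.25%, CREB (TGACGTNA) 1.09% and 1.1%, and HNF1 (GTTAATNAT) 0.82% and 1.75%. NF-kB (GGGANTTTC) matched 0.82% and 0.606%, NRF1 (GCATGCG) 0.546% and 1.34%, and GLI (GACCACC) 0.273% and 1.2%, while the full NFI palindrome matched 0% and 0.0366%.

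**Figure D3:**
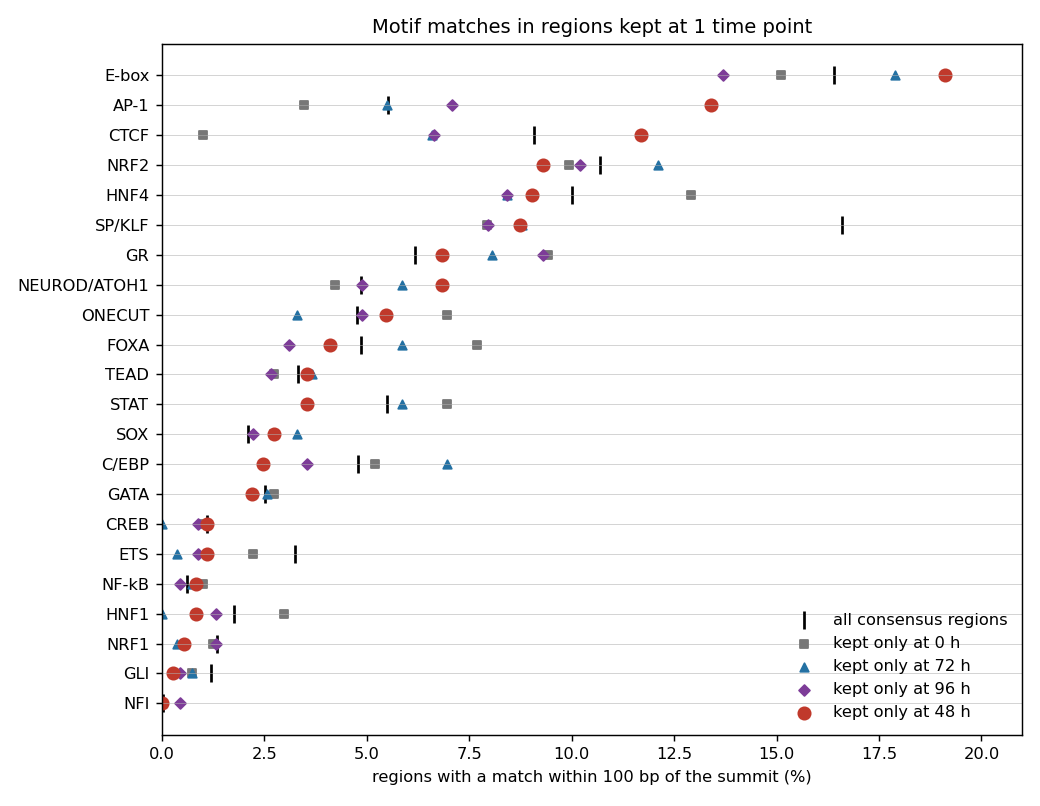
Percent of regions with a match to each of 22 motifs within 100 bp of the summit, for regions kept only at 48 h (red circles), only at 0 h, 72 h or 96 h, and for all 73709 consensus regions (black bars). AP-1 stands apart at 13.4% against 5.52% of all regions, and CTCF is at 11.7% against 9.08%.

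Both motifs were centred on the summits. AP-1 matches fell in 4.78% of the 48 h regions per 50 bp bin next to the summit and in 0.737% per bin beyond 500 bp, where all consensus regions had 1.71% and 0.876%. CTCF matches fell in 5.6% per bin next to the summit and in 0.0819% beyond 500 bp, against 4.25% and 0.0765% in all regions.

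**Figure D4:**
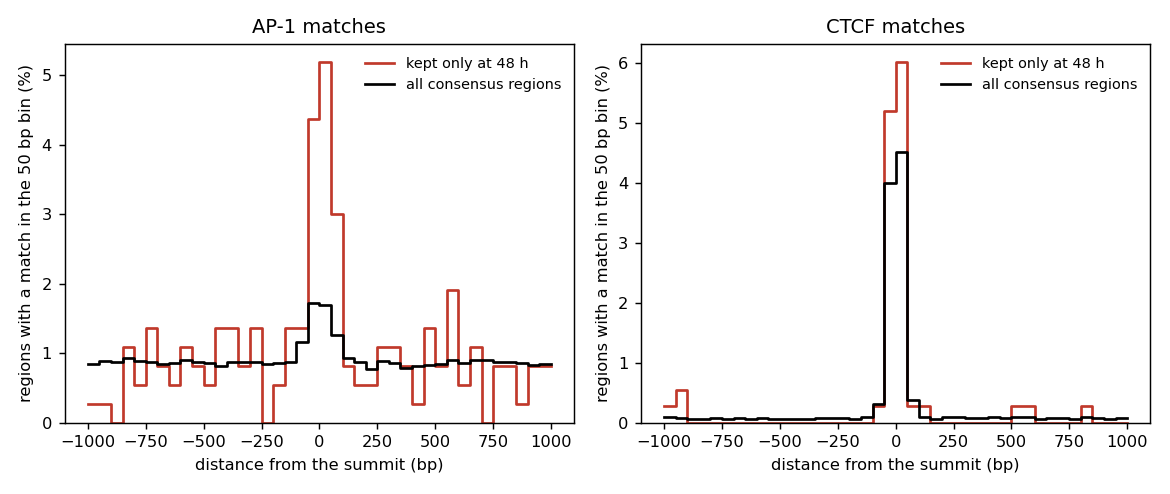
Percent of regions with an AP-1 (left) or CTCF match (right) in each 50 bp bin, by distance from the summit in bp, for the regions kept only at 48 h (red) and all consensus regions (black). Beyond 500 bp the 2 lines are at similar levels, on average 0.737% and 0.876% per bin for AP-1, and next to the summit the red line is higher, at 4.78% against 1.71%.

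Of the 49 with AP-1, 23 were intronic, 18 intergenic (36.7%) and 6 at promoters (12.2%). Of the 43 with CTCF, 22 were intergenic (51.2%), 8 intronic, 6 over coding exons and 2 at promoters (4.65%). Intergenic sequence held 31.8% of the 277 regions with neither motif and 29.3% of all consensus regions, and promoters 17% and 23.9%. Shares of all consensus regions with either motif were not computed. The 0 h libraries listed 89.8% and 55.1% of the AP-1 regions at any rank, the 72 h libraries 93.9% and 91.8%, and the 96 h libraries 87.8% and 44.9%. For CTCF the 0 h libraries listed 95.3% and 69.8%, the 72 h libraries 88.4% and 93%, and the 96 h libraries 97.7% and 65.1%. In either class 0 h replicate 2 and 96 h replicate 2 listed the fewest. Arntl, which encodes the clock factor BMAL1, was nearest to 2 AP-1 regions, chr7:113197103-113197771 upstream and chr7:113214200-113214672 in an intron. The first had folds of 5.98 and 7.45 at 48 h and 3.18 to 6.58 elsewhere, the other 6.4 and 5.47 against 3.13 to 6.05, so both overlapped the other time points.

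The same motifs were compared in the remaining intervals of each library, with every interval that overlapped 1 of the 366 regions left out. These are other intervals, but the libraries and the limit of 50000 are those of the rule. AP-1 matches were in 5.81% and 5.55% of these intervals in the 48 h libraries, while the 0 h libraries had 5.17% and 4.6%, the 72 h libraries 5.06% and 5.44%, and the 96 h libraries 4.89% and 5%. Both 48 h values lay above all the others, and the difference of the means was 0.651 percentage points (exact permutation test over the 28 choices of 2 libraries, two-sided p = 0.0357, the smallest this design allows, adjusted p = 0.314 over 22 motifs). C/EBP matches were the other motif at that p, in the opposite direction, in 4.32% and 4.19% at 48 h against 4.47% to 5.03% elsewhere (difference −0.445, exact permutation p = 0.0357, adjusted p = 0.314). HNF4 matches were in 8.92% and 8.84% at 48 h and 9.05% to 10.5% elsewhere (difference −0.732, exact permutation p = 0.107). CTCF matches were in 9.85% and 10.6% at 48 h, which overlapped the 8.81% to 9.89% of the other libraries (difference 0.799, exact permutation p = 0.143). With all intervals kept the AP-1 difference was 0.315 (exact permutation p = 0.214) and the CTCF difference 0.00217 (exact permutation p = 1). After Benjamini-Hochberg adjustment 0 of 22 motifs (0%) passed 0.05 and 2 passed 0.05 unadjusted. With a smallest possible exact permutation p of 0.0357, an adjusted pass required most of the 22 motifs to reach that p together. The adjusted count therefore could not show a difference in a few motifs. For 7 motifs the 48 h libraries did not overlap the others.

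**Figure D5:**
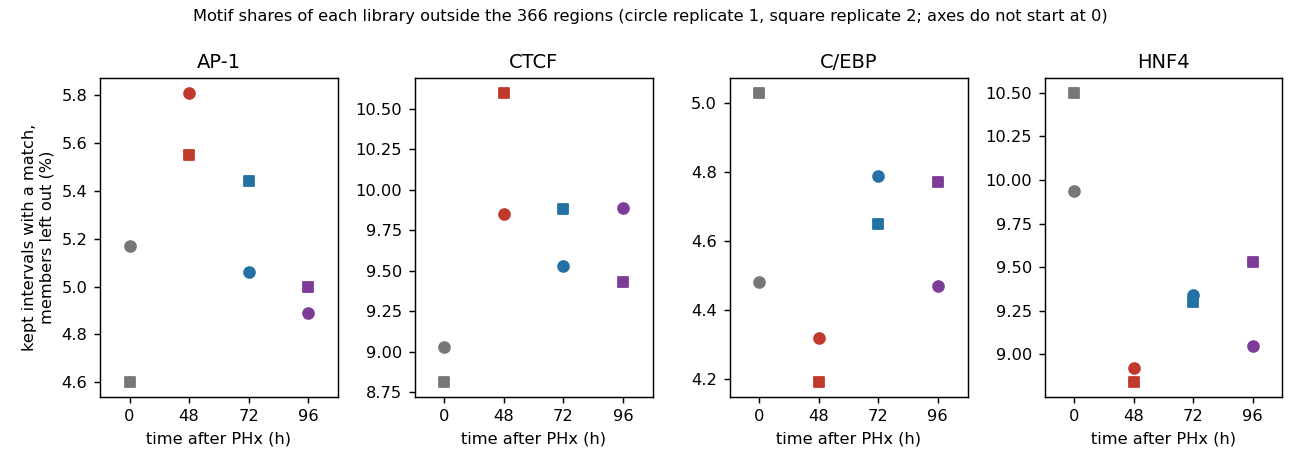
Percent of each library's kept intervals, outside the 366 regions, with an AP-1, CTCF, C/EBP or HNF4 match within 100 bp of the summit, by time after PHx in h (circles replicate 1, squares replicate 2, axes not from 0). The AP-1 points at 48 h (5.81% and 5.55%) are above and the C/EBP points (4.32% and 4.19%) below those of all other libraries.

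Transfer RNA genes were looked up after the region of highest rank had been seen to hold one. Of the 366 regions, 5 (1.37%) lay within 200 bp of a RefSeq tRNA gene and overlapped it, compared with 190 of all consensus regions (0.258%) and 0 of the regions kept only at 0, 72 or 96 h. They were 4 regions on chromosome 13, with tRNA-Tyr, tRNA-Ala, tRNA-Leu and tRNA-Gln genes, and 1 on chromosome 11 near Lasp1 with a tRNA-Cys gene. The tRNA-Leu region (chr13:21914569-21915011) had folds of 4.68 and 4.16 at 48 h and 3 to 4.53 elsewhere, and the tRNA-Gln region (chr13:21919980-21920403) 4.34 and 5.93 against 2.93 to 4.65, so both overlapped the other time points. The tRNA-Cys region (chr11:97797052-97797266) had 4.66 and 4.97 against 4.22 to 4.54 in the 3 other libraries that listed it, but its −log10 p was 12 and 13.1 at 48 h and 14.1 in 0 h replicate 1. Transfer RNA genes occur in near-identical copies, so reads may be shared between them. With 25000 intervals kept the share was 4.15% (0.363% of all regions), with q under 0.05 it was 0.416% (0.0921%), and with all intervals 0.234% (0.071%). Leaving out 48 h replicate 1 gave 0.462%, and leaving out 48 h replicate 2 gave 0.508%.

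Width and position are given beside those of all regions. Their median width was 377.5 bp, against 636 bp for all consensus regions and 417 to 450 bp for the regions kept only at another time. Promoters, within 1 kb of a start site, took 54 regions (14.8%, against 23.9% of all), introns 143 (39.1%, against 38.2%) and intergenic sequence 127 (34.7%, against 29.3%). Coding exons took 28 (7.65%, against 5.76% of all), UTRs 7 (1.91%, against 1.58%) and noncoding exons 7 (1.91%, against 1.13%). The promoter share was 13.4% for the regions kept only at 0 h, 11% for 72 h and 11.1% for 96 h. The share of the 48 h regions was 30.1% (26.4% of all) when 200 bp around each summit were merged in place of the intervals, and 23.5% (28.5% of all) within 2 kb of a start site. Median GC content of the summit windows was 49% (51% in all regions). Repeats masked in the reference made up a mean of 15.2% of the windows (10.2% in all regions and 11.7% to 13.3% in the sets of the other times). The median gap to the next consensus region was 3036.5 bp (5382 bp for all, and 2234, 7429 and 6516 bp for the regions kept only at 0, 72 and 96 h).

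At protein-coding promoters, the highest were those of Rbm47, given above, Gtf2a1, Gigyf1, Efna1, Gm12216 and Bmp3. The promoter of Gtf2a1 (chr12:91590839-91591074), a subunit of the general transcription factor TFIIA, had folds of 4.53 and 4.02 at 48 h and 2.22 to 3.3 in the 4 other libraries that listed it. Gigyf1 had 6.75 and 6.79 against 3.47 to 5.78 in 5 others. Efna1 (chr3:89282053-89282260), an ephrin ligand gene, had 4.66 and 3.35 against 2.42 and 2.3 in the 2 others that listed it. Gm12216 had 6.4 and 10.8 against 3.18 to 6.32, and Bmp3, a member of the bone morphogenetic protein family, 6.42 and 6.1 against 3.89 to 6.05. By fold, all of these were higher in both 48 h libraries, Bmp3 by the least. By −log10 p the promoters of Gtf2a1, Gigyf1, Gm12216 and Bmp3 overlapped the other time points, Gtf2a1 with 16.1 and 13.1 at 48 h and 14.3 in 0 h replicate 1.

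Of the 6 CTCF regions of highest rank, 1 overlapped the other time points by fold and all 6 by −log10 p, as at Csf3, with 11.5 and 12.1 at 48 h and 14.1 in 96 h replicate 1. The Mpnd region had folds of 3.96 and 5.18 at 48 h and 2.21 to 3.46 in 5 others. The Csf3 region, 1077 bp from the start site of the gene for a granulocyte growth factor, had 6.2 and 6.07 at 48 h and 4.5 to 6.05 in all 6 others. Ggcx, which encodes the carboxylase that activates vitamin K-dependent clotting factors, had 5.12 and 5.44 against 3.13 to 4.68 in 4 others. In the UTR of Mars2, a mitochondrial tRNA synthetase gene, the folds were 4.72 and 4.09 at 48 h and 2.74 to 4.33 in 5 others, which overlapped.

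Gene lists were counted by the nearest protein-coding gene, beside their share of all consensus regions. The values given for their regions are folds, and by −log10 p the regions of Cldn11, Arhgap18 and Tcf7l1 overlapped the other time points although their folds did not. The cytoskeleton and adhesion list took 15 regions (4.1%, against 1.9% of all, and 1.74%, 2.2% and 2.65% of those kept only at 0, 72 and 96 h). Among them were Cldn11, a tight junction gene (7.45 and 6.12 at 48 h, 3.43 to 5.8 in 3 others), Itga5, a fibronectin receptor subunit (4.65 and 3.9 against 2.87 to 3.4 in 4 others) and Arhgap18, a GTPase-activating protein (6.71 and 5.28 against 3.99 to 5.16 in 4 others). The Arhgap18 region lies 345381 bp from the start site of that gene, in an intron of Lama2. Cdh12, whose start site is 773796 bp from its region, had 6.75 and 5.96 at 48 h and 3.43 to 6.83 in 4 others, which overlapped. The list was built from symbol prefixes and took in Myog, a muscle transcription factor gene that codes for no cytoskeletal protein. It also held 2 regions in introns of Cdh2, 5737 bp apart.

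The development list, of transcription factor and morphogen prefixes, took 11 regions (3.01%, against 1.61% of all, and 0.248%, 1.83% and 0.442% of those kept only at 0, 72 and 96 h). Besides Bmp3 and the region assigned to Tbx2, its highest were near Gata3, a zinc finger transcription factor gene, and Fgf12. The region assigned to Gata3 (6.4 and 6.34 at 48 h, 3.5 to 5.72 in 4 others) is 1123997 bp from its start site. That of Fgf12 (6.62 and 5.38 against an overlapping 2.73 to 5.81 in 5 others) lies in an intron of Mb21d2. Hoxa13 and Wnt16 had regions at their promoters. The prefixes also took Tbxas1, a thromboxane synthase gene, and Bmper, whose product binds bone morphogenetic proteins.

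The metabolism list of detoxification and transporter prefixes took 12 regions (3.28%, against 2.37% of all, and 5.96%, 3.3% and 3.1% of those kept only at 0, 72 and 96 h). Slc25a15, the mitochondrial ornithine carrier of the urea cycle, had folds of 5.88 and 5.5 at 48 h and 2.99 to 5.94 in 5 others, which overlapped. Slc25a13, the mitochondrial aspartate-glutamate carrier, had 5.03 and 6.33 against 3.1 to 4.35 in 5 others, and Adhfe1 3.75 and 3.48 against 1.95 to 2.93 in 5 others. The signalling list took 3 regions (0.82%, against 0.91%), near Tcf7l1, a Wnt pathway transcription factor gene (6.76 and 5.5 at 48 h, 3.9 to 5.01 in 4 others), Gli2 and Amotl2. The fetal and progenitor list took 2 (0.546%, against 0.446%), near Gli2, the Hedgehog pathway effector, and Zeb2, a regulator of epithelial-mesenchymal transition (4.31 and 5.35 against 2.76 to 3.37 in 3 others). Gli2 had 5.25 and 4.77 at 48 h and 4.75 to 5.66 in 5 others, and Amotl2, a partner of the Hippo pathway, 3.58 and 3.32 against 3.57 in 96 h replicate 1, both overlapping. No region was nearest to 1 of the 50 cell cycle genes (0%, against 0.342% of all).

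Cell type markers were checked at their promoters. Of 10 hepatocyte genes, between 4 and 8 had a kept interval at the promoter, with 7 and 8 in the 0 h libraries, 4 and 6 at 48 h, 4 in each 72 h library and 5 and 6 at 96 h. Endothelial markers had 0 or 1 of 6, Kupffer cell markers 0 of 6, stellate cell markers 2 or 3 of 6, cholangiocyte markers 1 to 3 of 6, neutrophil markers 0 or 1 of 6 and B and T cell markers 0 of 5 each. None of the 366 regions was nearest to any of these genes, and the part of other cell types in the regions was not tested.

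The mean share of the 366 regions listed at any rank was 78.4% at 0 h and 84.6% over the 72 h and 96 h libraries, a difference of −6.15 percentage points. These lists also selected the regions, so the difference is given without a test. Without 0 h replicate 2 it was 4.51.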

How the data were processed

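The study's methods state that the authors trimmed the reads, mapped them to mm10 with Bowtie2, removed duplicates and called peaks with MACS2 in the ENCODE pipeline. The deposited lists come 1 per library. Each deposited list gives the authors' peak caller values: a display score (not used), a fold ratio over local background, −log10 p and −log10 q, and a summit. No read counts were used, so depth is unknown.

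Lines sharing an interval were collapsed to the highest −log10 p, on chromosomes 1 to 19 and X. Coordinates were read on GRCm38.p6, where 0 intervals ended past a chromosome end. Genes came from GENCODE M21 basic (75508 start sites, 41249 of them of protein-coding genes) and tRNA genes from RefSeq. Motifs were sought in 200 bp around the summit of the region's interval of highest within-list percentile. The 22 were AP-1, HNF4, FOXA, C/EBP, E-box, SP/KLF, CTCF, STAT, NEUROD/ATOH1, HNF1, ONECUT, TEAD, GATA, SOX, NFI, NF-kB, ETS, NRF1, GLI, NRF2, CREB and GR.

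Regions were ordered by the lower of their 2 within-list percentiles of −log10 p at 48 h. The 10 highest, the 6 highest with CTCF, the 6 highest at coding promoters, those listed nowhere else, the 4 highest of each gene list and those at the limits are named. The regions, lists and motifs were chosen with earlier results of these data known. Regions are not replicates, so shares were not tested. Library shares were tested by exact permutation with Benjamini-Hochberg adjustment over 22 motifs. The code was tested on simulated data. Python 3.11.15 with numpy 2.4.6 and pandas 2.3.3 was used. Alternatives covered the number of intervals kept, the window, the overlap, promoter distance, each library left out and a replicate block.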

Additional observations from a re-analysis of the deposited data

How the results depend on the processing

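The number of regions was 366 and ranged from 443 to 2360 over the lists without 1 library, where leaving out 48 h replicate 1 or 2 gave 2164 or 2360. It was 855 with all deposited intervals, 624 with 200 bp around each summit and 2 with absence from the full lists required. Percentages of regions moved past the binomial interval as follows, with those of all regions in parentheses. With 25000 intervals kept, CTCF was at 17.6 (10.3), AP-1 at 6.23 (5.25), HNF4 at 4.84 (9.14) and promoters at 19.4 (33). With all intervals, CTCF was at 1.05 (2.97), AP-1 at 6.43 (5.16), HNF4 at 6.08 (7.54) and promoters at 8.89 (10.7). With q under 0.05, CTCF was at 1.46 (3.84), AP-1 at 8.11 (5.43) and promoters at 10.6 (12.5). With summit intervals of 200 bp, CTCF was at 7.85 (8.21), promoters at 30.1 (26.4) and median GC at 51. The 2 regions absent from the full lists had 0 for CTCF, AP-1, HNF4 and FOXA, 50 for promoters and 43 for GC. A 400 bp window gave HNF4 13.7 (15), FOXA 7.92 (7.84) and GC 46.8, and the whole region gave 15.8 (21.5), 8.47 (11.4) and 47.7. One mismatch in CTCF gave 36.9 (26.8). Promoters were at 23.5 (28.5) within 2 kb and 11.2 (19.8) for protein-coding start sites. Without 1 library, CTCF ran from 5.25 (without 48 h replicate 2) to 14.2 and AP-1 from 8.69 (without 48 h replicate 1) to 13. AP-1 in the 79 regions higher by −log10 p, an alternative chosen after seeing the data, was 24.1. The 0 h minus later difference in listing ran from −16.8 to 4.51 over the lists without 1 library, and it turned positive without 0 h replicate 2. The cause of these moves was not tested.

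The library differences for CTCF, AP-1, HNF4 and FOXA did not change sign under the alternatives tried. CTCF ran from 0.00217 (all intervals) to 2.22 (25000 intervals) around 0.799, and AP-1 from 0.315 (all intervals) to 0.782 (without 48 h replicate 2) around 0.651. In any setting in which they were counted, 0 motifs passed the adjusted threshold. So few libraries leave a pass out of reach unless most motifs differ together. The labels do not say whether libraries of the same number were prepared together. Between time points the deviations of replicate 1 in log2 fold, set to 0 where unlisted, correlated at −0.055 to 0.083. Shared preparation of some libraries was not tested. With the replicate block the differences were 0.799, 0.651, −0.732 and −0.296 points for CTCF, AP-1, HNF4 and FOXA (exact permutation p = 0.188, 0.0625, 0.125 and 0.125). The listing difference was −6.15. The smallest exact permutation p that the block allows is 0.0625, so no motif could pass 0.05 in that setting. Depth is unknown and limits what absence from a list means.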

Other observations

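Some of the 366 regions lay close together. Within 50 kb of each other and next in order stood 12 pairs, among them 3 regions at Lasp1, which encodes an actin-binding protein, on chromosome 11 with gaps of 13094 and 9231 bp, and 2 regions near Ajuba, a LIM domain gene, on chromosome 14 with a gap of 5082 bp. The 2 tRNA regions assigned to Zfp184 were 4968 bp apart. The Lasp1 regions had folds at 48 h of 4.66 and 4.97 (4.22 to 4.54 in 3 other libraries), 4.68 and 3.93 (2.94 to 3.89 in 5 others), and 3.71 and 3.85 (2.29 to 4.1 in all 6 others), so the third overlapped by fold. All 3 overlapped by −log10 p. The share of consensus regions that were kept only at 48 h ran from 0.0962% on chromosome 19 (2 of 2079) to 0.742% on chromosome 12 (23 of 3100). These counts were made after the data were seen and were not tested. Pairs were not counted in other sets of regions, so the 12 pairs do not tell whether the 366 regions lie closer together than others.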
